A study of Vitis vinifera with 3 samples.

Results

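The 238 longest gene models that hold a listed methylation difference were followed through grapevine berry development. They are the gene models of at least 40000 bp, from start to end and with introns counted, among the 9490 models that the deposited tables name on the 19 numbered chromosomes. A model is named when a differentially methylated region overlaps it, so very long models in which no region was listed are not among the 238. Together they hold 4450 of the 377997 listed regions, while 43882 regions name one of the 9252 shorter models and the others name none.

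Cytosine methylation was measured by whole-genome bisulfite sequencing in berries of Vitis vinifera cv. 'Fujiminori', with 1 library for each of 3 stages. The stages were first growth at 40 days after flowering, véraison, the onset of ripening, at 65 days, and maturity at 90 days. All 3 libraries came from fruit DNA of the same cultivar, and the labels name no treatment. Each pair of stages has 1 table for each cytosine context, which makes 9 tables of regions with the average methylation level of both libraries. With 1 library per stage there is no replicate error and no test between stages, and every value below describes these 3 libraries. Read depth is unknown. The levels are in percent and move in steps of 1 percentage point, and a difference is the later stage minus the earlier one.

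Plant DNA carries methylated cytosines in the sequence contexts CG, CHG and CHH, with H standing for A, C or T. In Arabidopsis, CG methylation is copied after replication by MET1, CHG methylation is kept by CMT3 together with a histone mark of silent chromatin, and CHH methylation has to be set anew, by RNA-directed DNA methylation or CMT2. The bodies of many plant genes carry CG methylation, whereas CHG and CHH methylation mostly lie over transposable elements, which long plant introns often contain. The tables give no exons, introns or transposable elements. None of the identifiers of these very long models matched the reference gene list, so no gene symbols or functions are given.

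The very long models were between 40272 and 131799 bp, with a median of 52.7 kb (quartiles 45.5 and 67.4 kb), and 13 of them reached 100 kb. They summed to 14.2 Mb, which is 15.7% of the length of all listed models. They lay on both strands, 125 on the plus and 113 on the minus strand, and on every numbered chromosome, from 4 on chromosome 3 to 19 on chromosome 4. No shorter listed model was nested in any of them.

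CG regions were scarce in the very long models. Of their 4450 regions, 30 were CG (0.674%), 1475 were CHG (33.1%) and 2945 were CHH (66.2%). In the shorter models CG regions made up 8.26%, CHG regions 20.8% and CHH regions 71.0%. The very long models held 2.03 CG regions for every 100 CHG regions, against 39.8 in the shorter models, and 200 CHH regions for every 100 CHG regions, against 341. Set the other way, they held 0.821% of the CG regions, 13.9% of the CHG regions and 8.64% of the CHH regions that name a gene model.

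Per length, the very long models had 2.12 CG regions per Mb, against 47.8 in shorter models. Their CHG density was 104 regions per Mb, against 120, and their CHH density was 208 regions per Mb, against 410. A short model is in the set only because a region hit it, which raises its density by construction. Densities were therefore also taken over the models that a region of another context had already listed. Counted so, the very long models had 2.12 CG, 105 CHG and 205 CHH regions per Mb, against 27.8 CG, 93.0 CHG and 280 CHH regions per Mb in shorter models. The CG density stayed lower in the very long models under this count, and the order of the CHG densities turned round.

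**Figure D1:**
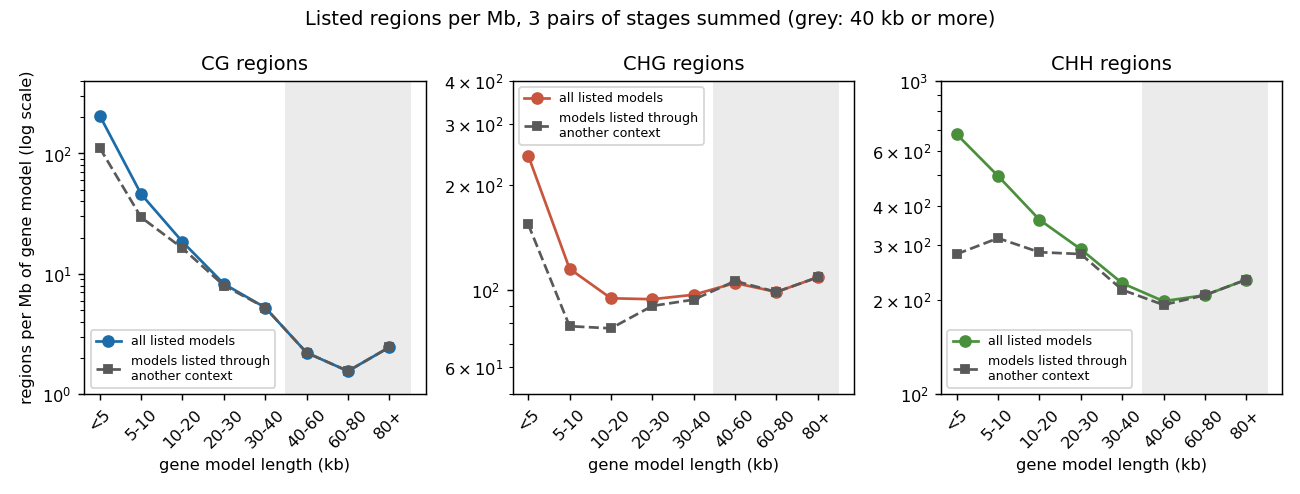
Regions per Mb of listed gene model (log axis) by length class and cytosine context, over the 3 pairs of stages. Solid lines take all listed models, and dashed lines only those that a region of another context had listed. The values below are those of all listed models. CG density falls with every class up to 80 kb and is between 1.55 and 2.46 regions per Mb from 40 kb upward, whereas CHG density lies between 93.9 and 109 regions per Mb from 10 kb upward.

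The plot of density by length shows that the CG values follow a gradient over all listed models, not a step at 40 kb. CG regions per 100 CHG regions were 84.6 in models under 5 kb and 39.9 in models of 5 to 10 kb, and 2.11, 1.58 and 2.26 in the 3 classes above 40 kb. The models of 10 to 40 kb, which are nearest in length, had 13.4 CG, 94.7 CHG and 319 CHH regions per Mb. Over those that a region of another context had listed, the densities were 12.2 CG, 84.0 CHG and 270 CHH regions per Mb. By that count models of 30 to 40 kb had 5.24 CG and 215 CHH regions per Mb, against 2.12 and 205 in the very long models. The CHH density was thus close to that of the class next in length.

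The length limit itself cut through models of very different content. The 5 models just inside it, of 40272 to 40831 bp, held 3, 12, 53, 86 and 17 regions. The 5 just outside it, of 39711 to 39804 bp, held 13, 4, 9, 6 and 6 regions.

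Members differed widely in how many regions they held. The count ran from 1 to 86 with a median of 15 (quartiles 10 and 21), and the 10 members with the most regions held 14.3% of all of them. The 158 members of 40 to 60 kb had a median of 4 CHG and 7 CHH regions. The 47 members of 60 to 80 kb had a median of 7 CHG and 10 CHH regions, and the 33 longer ones 10 CHG and 21 CHH regions. In 204 members CHG and CHH regions stood together with no CG region, 21 members had all 3 contexts, 9 had CHG regions only and 4 had CHH regions only. CHH regions outnumbered CHG regions in 154 members, CHG regions outnumbered CHH regions in 72, and in 12 the counts were equal. The 3 members with a single region, VIT_10s0003g04390.t01, VIT_18s0072g00720.t01 and VIT_18s0001g07170.t01, each had it in CHG.

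CHH regions in the very long models were nearly all more methylated at véraison than at first growth. Of 1616 such regions, 1611 showed a higher level at véraison (99.7%, with an exact 95% interval of 99.3 to 99.9%, covering counting error over regions only) and 5 were lower; 99.6% of the whole table was higher. The median CHH level of these regions was 15% at véraison and 4% at first growth, with a median difference of 11 points (quartiles 8 and 14). In shorter models the medians were 19% at véraison and 5% at first growth, and the median difference was 14 points. At least 1 such region lay in 218 of the 238 members (91.6%), where 53.4% of all listed models had one. The members are much longer than most listed models, which by itself raises the chance of holding a region. Shares of this kind are not adjusted for length, here or below, and do not show that regions are denser in the members. Per Mb, the very long models held fewer CHH regions than shorter models under both counts given above. In 213 members every such region was higher at véraison, in 1 member every one was lower, and in 4 members they went both ways. More than 1 such region lay in 192 of the 218 members, and the others go one way by necessity.

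Maturity set against first growth gave almost the same picture in CHH. Of 1204 regions in very long models, 1199 were higher at maturity and 5 were lower (99.6% higher, against 99.4% of the whole table). Their medians were 15% at maturity and 4% at first growth, with a median difference of 11 points, against 14 points in shorter models. These regions lay in 208 members (87.4%), while 48.1% of listed models had one, with length again not adjusted for. Both comparisons share the first growth library. The regions were short, with a median width of 53 bp, against 60 bp in shorter models.

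Between véraison and maturity the very long models held only 125 CHH regions, in 84 members (35.3%; 18.7% of listed models had one, length not adjusted for). Of these 125, 53 were higher at maturity and 72 were lower (42.4% higher, interval 33.6 to 51.6%). Over all listed regions of that context and pair 31.2% were higher, and in shorter models 32.0%. By length class the share was 38.3% from 20 to 30 kb and 39.0% from 30 to 40 kb, close to that of the members. Among members it was 45.1% from 40 to 60 kb, 46.4% from 60 to 80 kb and 30.8% above. The members of 60 to 80 kb held 28 such regions (interval 27.5 to 66.1%) and the longer ones 26 (interval 14.3 to 51.8%). These intervals are too wide to set the classes apart. The median levels were 8% at maturity and 9% at véraison, with a median difference of -7 points. In shorter models they were 11% at maturity and 20% at véraison, with a median difference of -13 points. CHH densities in the very long models were 114 regions per Mb for véraison against first growth, 8.83 for maturity against véraison and 85.0 between first growth and maturity.

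CHG regions in the very long models were mostly less methylated at the later stage, in each pair of stages. For véraison against first growth, 176 of 441 regions were higher and 265 lower. The 39.9% that were higher (interval 35.3 to 44.6%) stood beside 36.0% in shorter models and 40.5% in the whole table, so this share was near both. The median CHG level was 22% at véraison and 31% at first growth. The lower regions had a median of 17% at véraison and 40% at first growth, and the higher ones 36.5% at véraison and 16% at first growth. Such regions lay in 189 members (79.4%), where 25.5% of listed models had one, and these shares too are not adjusted for length. In 73 members all of them were lower, in 40 all were higher, and in 76 they went both ways. Only 123 of the 189 members had more than 1 such region, and a member with a single region goes one way by necessity. Lower regions were in the majority on 13 of the 19 chromosomes and higher ones on 4.

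For maturity against véraison, 175 of 511 CHG regions in very long models were higher and 336 were lower. This is 34.2% higher (interval 30.1 to 38.5%), against 47.0% in shorter models (interval 45.1 to 48.8%) and 49.7% in the whole table. The class next in length, 30 to 40 kb, was close to the members with 35.7%. The median difference was -15 points, against -8 points in shorter models. Lower regions had a median of 17% at maturity and 39.5% at véraison. The regions lay in 192 members (80.7%; 25.0% of listed models had one, length not adjusted for). Among them, 118 members had more lower than higher regions, 48 more higher than lower ones and 26 an equal number. Of the 192 members, 138 had more than 1 such region, and each of the others falls to one side by necessity. On 17 of the 19 chromosomes the lower regions were in the majority.

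For maturity against first growth, 118 of 523 CHG regions in very long models were higher and 405 were lower. This is 22.6% higher (interval 19.0 to 26.4%), against 32.6% in shorter models (interval 31.0 to 34.3%) and 39.8% in the whole table. The median difference was -21 points, against -15 points in shorter models. Lower regions had a median of 18% at maturity and 43% at first growth, against 15% at maturity and 36% at first growth in shorter models. The regions lay in 200 members (84.0%; 26.6% of listed models had one, length not adjusted for). In 122 members all of them were lower, in 23 all were higher and in 55 they went both ways. Only 129 of the 200 members had more than 1 such region, and the others go one way by necessity. Lower regions were in the majority on each of the 19 chromosomes.

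**Figure D2:**
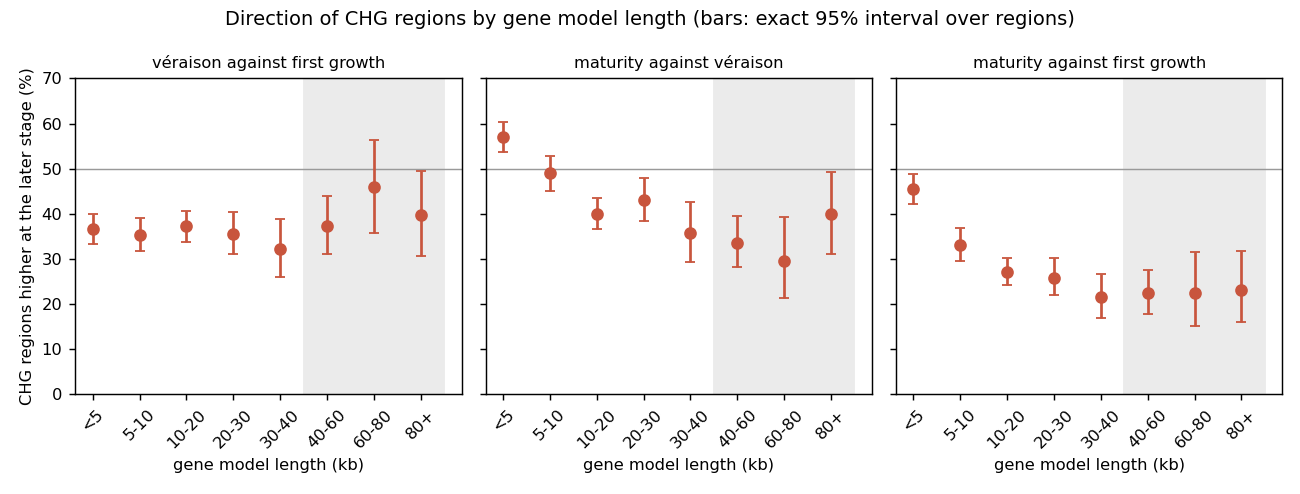
Share of CHG regions that were more methylated at the later stage (percent), by length class of the gene model and for each pair of stages; bars are exact 95% Clopper-Pearson intervals over regions. For maturity against véraison the share is 57.0% in models under 5 kb and between 29.6 and 40.0% in the classes of 40 kb or more, and for maturity against first growth it is 45.4% under 5 kb and between 22.3 and 23.1% from 40 kb upward.

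The direction of CHG regions also changed with length before the 40 kb limit, as the plot of the share by length class shows. For maturity against first growth the share of higher regions was 45.4% in models under 5 kb, 33.1% from 5 to 10 kb, 27.1%, 25.9% and 21.6% in the next 3 classes, and 22.3%, 22.5% and 23.1% above 40 kb. For maturity against véraison it was 57.0% in models under 5 kb, then 48.9%, 40.0%, 43.1% and 35.7% in the classes up to 40 kb. Above 40 kb it was 33.6%, 29.6% and 40.0%. For véraison against first growth the classes showed no such order and ran from 32.1 to 45.9%. The gap to shorter models differed with the choice of regions, and what goes with it was not tested. Among regions with at least the median difference of their table, 22.2% were higher at maturity than at first growth in very long models, against 27.4% in shorter ones and 23.0% in those of 10 to 40 kb. For maturity against véraison these shares were 30.9% in very long models, 40.8% in shorter ones and 34.7% in those of 10 to 40 kb.

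CG regions were few enough to be described one by one. The 30 entries lay at 23 separate places in 21 members, and 17 were higher and 13 lower at the later stage. For véraison against first growth 6 of 10 were higher, where 18.8% of the whole table was higher. For maturity against véraison 6 of 8 were higher, against 53.1% of the whole table. For maturity against first growth 5 of 12 were higher, against 20.7% of the whole table. The exact intervals of these shares, from 26.2 to 87.8%, from 34.9 to 96.8% and from 15.2 to 72.3%, are wide. For véraison against first growth, 4 of 8 were higher without VIT_15s0048g01650.t01, which holds 2 of the 10, and 44% were higher with a limit of 30000 bp. The CG regions lay in 9, 7 and 11 members (3.78%, 2.94% and 4.62%), while 11.8%, 8.77% and 13.1% of listed models had such a region.

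The CG regions near the ends of the models differed by less than those inside. Of the 30 entries, 16 had their midpoint within 2 kb of an end (53.3%, interval 34.3 to 71.7%), although 6.72% of the members' length lies there. In models of 10 to 40 kb 59.7% of CG regions lay within 2 kb of an end, on 22.3% of the length. These 16 entries were at 11 places in 10 members, and their differences ran from 4 to 34 points in size, with a median of 13.5. The 14 entries farther inside were at 12 places in 11 members, and their differences ran from 13 to 100 points, with a median of 48.5. All 6 entries with a difference of 50 points or more were among these 14.

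The largest CG gain was in VIT_05s0051g00050.t01, a model of 111684 bp on chromosome 5. There the region from 10274188 to 10274537 had a CG level of 96% at véraison and 20% at first growth. A listed region with the same start, ending at 10274546, had 96% at maturity and 20% at first growth. The largest CG loss was in VIT_15s0045g01250.t01 on chromosome 15, where the 130 bp from 6907546 to 6907675 were listed at 0% at maturity and 100% at first growth. How many reads stand behind these levels is unknown. In VIT_09s0002g05110.t01 on chromosome 9, the region from 4804093 to 4804281 had 100% at maturity and 44% at véraison. The largest loss between these stages was in VIT_16s0013g00860.t01 on chromosome 16, from 6389328 to 6389474, with 0% at maturity and 33% at véraison.

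VIT_04s0044g01570.t01 on chromosome 4 was listed in both tables with véraison at one place, 23169945 to 23170317, which reaches past the 3′ end of the model. CG stood at 48% at first growth, then 18% at véraison and 37% at maturity. In the authors' deposited table its véraison and first growth levels have p = 7.56e-09, the smallest p of any member CG region in that comparison. The 4 CG entries of VIT_05s0136g00140.t01 crowded between 13407735 and 13408237, at the 3′ end of that model on chromosome 5. They partly overlapped and gave 9% at maturity and 22% at first growth, 11% at véraison and 23% at first growth, 36% at maturity and 17% at véraison, and 40% at maturity and 20% at véraison. The maturity level of that end thus depended on the window, 9% in one and 36% or 40% in those next to it.

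Each of 5 equal parts of the very long models held a similar share of the CHG and CHH regions, whereas CG regions lay mostly in the outermost parts. Divided into 5 equal parts along the direction of the strand, the models held 19.6%, 21.4%, 19.5%, 20.1% and 19.5% of their CHG regions from first to last. The CHH shares were 18.8%, 20.6%, 20.0%, 20.6% and 19.9%. The CG shares were 30%, 3.3%, 6.7%, 10% and 50%. The outermost parts, first and last, together held 24 of 30 CG entries (80%, interval 61.4 to 92.3%), 39.1% of CHG regions (interval 36.6 to 41.6%) and 38.7% of CHH regions (interval 36.9 to 40.5%). Within 2 kb of an end lay 4.20% of CHG regions (interval 3.24 to 5.36%) and 3.94% of CHH regions (interval 3.27 to 4.71%), both below the 6.72% of the length that lies there. In models of 10 to 40 kb the outermost parts held 67.3% of CG, 34.8% of CHG and 34.2% of CHH regions.

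**Figure D3:**
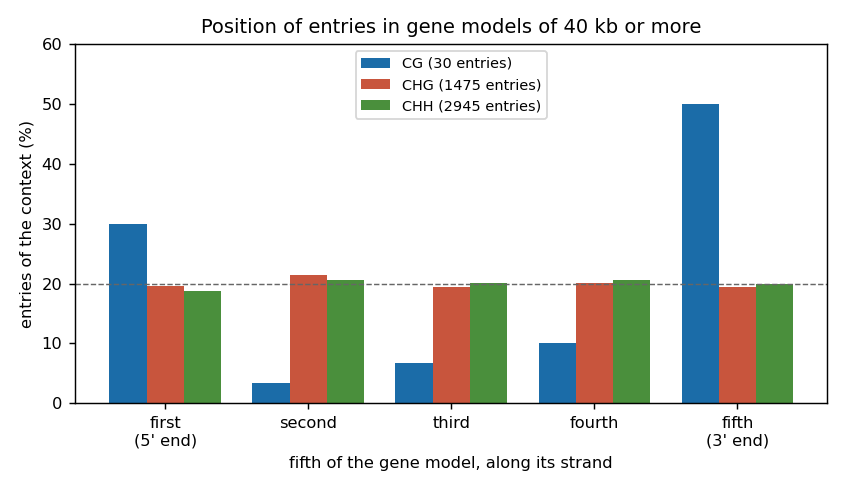
Share of regions (percent) in each of 5 equal parts of the very long gene models, from the 5′ to the 3′ end along the strand, by context and over the 3 pairs of stages. In very long models 80% of the 30 CG entries lie in the outermost parts, while each of the 5 parts holds between 18.8 and 21.4% of the CHG and CHH regions.

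The direction of CHG regions varied little along the very long models when the 3 pairs of stages were pooled, but more within single pairs. The share that was higher at the later stage, over the 3 pairs, was 29.8%, 29.5%, 31.7%, 36.4% and 31.7% in the 5 parts. For maturity against véraison the shares were 29.9%, 29.6%, 43.7%, 38.8% and 29.5%, highest in the third part. For maturity against first growth they were 22.7%, 23.3%, 16.7%, 27.6% and 22.2%, lowest in that part. For véraison against first growth they were 37.6%, 37.9%, 35.4%, 43.6% and 44.1%. For CHH the share over the 3 pairs was between 96.6 and 97.8% in every part, and most of these regions were listed against first growth. The 125 CHH regions of maturity against véraison gave 36%, 29.2%, 55.6%, 37.5% and 52%.

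The member with the most regions was VIT_15s0045g00130.t01, on the minus strand of chromosome 15 from 4658637 to 4699316. It is among the shortest members, at 40680 bp, and its 86 regions came to 21.1 per 10 kb, the highest density of any member. Of these, 84 were CHH, and 83 of the 84 were higher at the later stage. In CHH the medians were 13% at véraison and 5.5% at first growth, and 12% at maturity and 4% at first growth. Of the 84, 39 lay in the last of the 5 parts of the model, and 24 lay within 5 kb at that end, all of them higher. Its single CG region, from 4676641 to 4677000, had 97% at maturity and 43% at first growth, and its single CHG region had 92% at véraison and 44% at first growth.

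VIT_05s0051g00050.t01, on the plus strand of chromosome 5 from 10177400 to 10289083, came next with 81 regions. Its 72 CHH regions included 70 that were higher at the later stage, with medians of 17% at véraison and 3% at first growth in the 37 regions of that pair. In 6 of its 7 CHG regions the later stage was lower. Over the 3 CHG regions of maturity against first growth, the medians were 21% at maturity and 45% at first growth. One of its CHH regions, from 10253523 to 10253584, had the largest CHH loss of any member between these stages, with 6% at maturity and 64% at first growth.

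VIT_10s0003g05150.t01, on chromosome 10 from 9357356 to 9407963, held 58 regions in 50608 bp, and all 58 were CHH and higher at the later stage. The 29 regions of véraison against first growth had medians of 17% at véraison and 4% at first growth. The 29 of maturity against first growth had medians of 18% at maturity and 5% at first growth. It is 1 of 4 members without a CHG region, with VIT_15s0021g00500.t01, VIT_04s0159g00050.t01 and VIT_18s0001g00910.t01. VIT_02s0033g00610.t01, at 40417 bp on chromosome 2, had a similar make-up: 52 of its 53 regions were CHH and 51 of those were higher at the later stage.

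In VIT_12s0055g00710.t01, on chromosome 12 from 13830585 to 13880287, CHG regions were mostly lower and CHH regions all higher at the later stage. Of its 20 CHG regions 15 were lower at the later stage, and all 32 of its CHH regions were higher. The members as a whole showed this pattern too, so it does not set the model apart. Over the 3 pairs of stages, between 29.5 and 36.4% of member CHG regions were higher in each of the 5 parts. For member CHH regions the share was between 96.6 and 97.8%. In VIT_12s0055g00710.t01, the 10 CHG regions listed between first growth and véraison had medians of 15.5% at véraison and 28.5% at first growth. The 20 CHH regions of the same pair had medians of 13% at véraison and 3% at first growth.

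**Figure D4:**
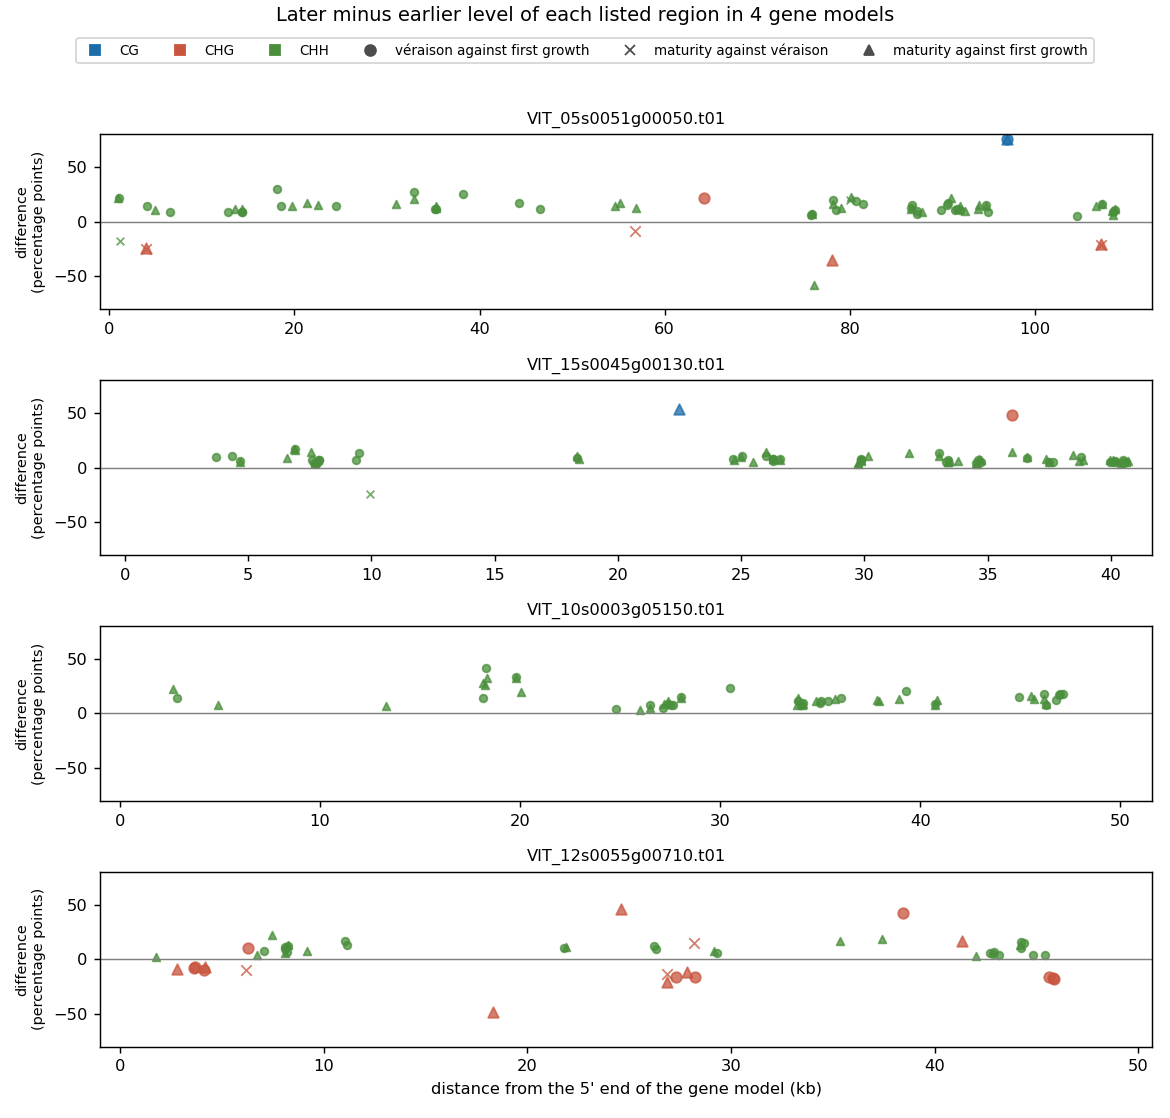
Difference in methylation level (later minus earlier stage, percentage points) of every listed region in 4 very long models, by distance from the 5′ end (kb) along the strand; colours mark the context and marker shapes the pair of stages. Nearly all CHH points lie above 0, the 15 lower CHG regions of VIT_12s0055g00710.t01 lie below it, and VIT_10s0003g05150.t01 shows CHH points only.

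The other members with the most regions had CHG regions that went both ways. VIT_07s0005g04510.t01 on chromosome 7, of 77684 bp, had 73 regions, with 8 of 15 CHG regions and 56 of 58 CHH regions higher at the later stage. All 3 of its CHG regions for véraison against first growth were lower, and 4 of 5 for maturity against véraison were higher. VIT_04s0008g07010.t01 on chromosome 4, of 74591 bp, had 71 regions, with 5 of 13 CHG regions and 55 of 58 CHH regions higher at the later stage. VIT_16s0013g00300.t01 on chromosome 16, of 82842 bp, had 59 regions, with 5 of 8 CHG regions and all 51 CHH regions higher at the later stage.

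Of the 10 longest models, only VIT_05s0051g00050.t01 was also among the 5 with the most regions, although the median count was 12 from 40 to 60 kb, 16 from 60 to 80 kb and 28 above. VIT_03s0088g00450.t01, of 131799 bp on the minus strand of chromosome 3 from 8486720 to 8618518, held 21 regions. Of its 11 CHG regions 8 were lower at the later stage, and all 4 of maturity against first growth were, with medians of 20% at maturity and 60.5% at first growth. Its 10 CHH regions were all higher. VIT_12s0035g00800.t01, of 123793 bp, held 39 regions, with all 27 CHH regions higher and 7 of 12 CHG regions lower at the later stage. VIT_04s0043g00740.t01, of 122958 bp, held 45 regions, with 33 of 35 CHH regions higher and 8 of 10 CHG regions lower. VIT_06s0009g02510.t01, of 121138 bp, held 39 regions, and 20 of its 33 CHH regions, all of them higher, lay in the first of its 5 parts.

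Among the next longest, CHG regions were again mostly lower at the later stage. They were lower in 8 of 10 cases in VIT_19s0027g01090.t01, of 120984 bp. They were lower in 8 of 11 cases in VIT_16s0022g01860.t01, of 119432 bp, and in 7 of 8 cases in VIT_06s0004g01200.t01, of 119416 bp. In VIT_16s0022g01860.t01 all 5 CHG regions of maturity against véraison were lower, with medians of 27% at maturity and 66% at véraison. VIT_14s0036g00660.t01, of 118554 bp, had 4 of 9 CHG regions lower and 38 of 39 CHH regions higher, with 19 of the 39 in the part before the last. VIT_05s0020g00410.t01, of 107146 bp, held 14 regions and went the other way in CHG, with both of its CHG regions higher.

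Regions in all 3 contexts with 1 direction for each context occurred in 3 members. A context with a single region has 1 direction by necessity. VIT_16s0013g01430.t01 on chromosome 16 had CG levels of 31% at first growth, then 77% at véraison and 79% at maturity from 8089365 to 8089443. Its 1 CHG region had 27% at maturity and 60% at first growth, and its 15 CHH regions were all higher at the later stage. VIT_05s0020g00410.t01 had 1 CG region with 38% at maturity and 77% at first growth, and its 11 CHH regions were all higher. VIT_07s0005g06480.t01 on chromosome 7 had 1 CG region with 100% at véraison and 50% at first growth, 1 CHG region with 1% at maturity and 8% at first growth, and 8 CHH regions that were all higher.

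Regions of different contexts seldom overlapped in the very long models. A CG and a CHG region of one pair of stages shared at least 1 bp in 1 case, for véraison against first growth, and both were lower. No CG region overlapped a CHH region. Between first growth and véraison, CHG regions overlapped CHH regions in 19 pairs, made of 13 CHG and 12 CHH regions in 10 members. Both were higher at véraison in 18 pairs, and in 1 pair CHG was lower and CHH higher. For maturity against first growth there were 7 such pairs, with both higher in 4 and CHG lower with CHH higher in 3. For maturity against véraison there was no such pair. The widths of the regions listed between first growth and véraison summed to 96.0 kb in CHG and 98.7 kb in CHH, of 14.2 Mb. With so little of the length covered, few overlaps would arise in any case. Whether the contexts overlapped more or less often than regions placed at random was not tested.

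The size of single differences reached far beyond the medians. The largest CHG gain between first growth and véraison was in VIT_04s0023g02740.t01 on chromosome 4, from 19288753 to 19288805, with 100% at véraison and 43% at first growth; 1 other member region had a gain of the same size. The largest CHG loss of that pair was in VIT_08s0007g08480.t01 on chromosome 8, from 21870009 to 21870089, with 30% at véraison and 100% at first growth. Between véraison and maturity the largest CHG gain was in VIT_09s0018g01070.t01 on chromosome 9, from 17733759 to 17734065, with 87% at maturity and 19% at véraison. The largest loss was in VIT_11s0016g05240.t01 on chromosome 11, from 4585560 to 4585766, with 11% at maturity and 94% at véraison. These regions were 53 to 307 bp wide.

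Between first growth and maturity the largest CHG gain was in VIT_08s0007g05260.t01 on chromosome 8, from 19199057 to 19199121, with 100% at maturity and 46% at first growth. The largest loss was in VIT_08s0056g00570.t01, also on chromosome 8, from 809427 to 809618, with 30% at maturity and 94% at first growth. The CHG region with the smallest p in the authors' deposited table for this pair was a more moderate one, in VIT_17s0000g04630.t01 from 4840231 to 4840607, with 23% at maturity and 54% at first growth (p = 9.36e-28).

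In CHH the largest gain was in VIT_12s0034g00660.t01 on chromosome 12. Its region from 16407528 to 16407582 had 0% at first growth, then 89% at véraison and 74% at maturity. Upstream in the same model, from 16404382 to 16404789, CHG stood at 53% at first growth, then 14% at véraison and 10% at maturity. VIT_05s0029g01340.t01 on chromosome 5 held the largest CHH loss between first growth and véraison, from 17341779 to 17341823, with 3% at véraison and 48% at first growth. It also held the largest CHH gain between véraison and maturity, from 17333321 to 17333429, with 53% at maturity and 7% at véraison. The largest CHH loss between these stages was in VIT_04s0008g07010.t01 on chromosome 4, from 7028245 to 7028294, with 33% at maturity and 87% at véraison.

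Some places could be followed through all 3 stages, because a region has identical limits in the tables of véraison and of maturity against first growth. In the very long models these were 18 CHG regions in 18 members, 26 CHH regions in 22 members and 1 CG region. The CHH medians were 4.5% at first growth, then 17% at véraison and 17% at maturity, and all 26 were higher at both later stages. In 24 of them véraison and maturity lay within 5 points of each other. The CHG regions had medians of 32.5% at first growth, then 19% at véraison and 18.5% at maturity, but they split, with 8 lower and 10 higher at both later stages. In 17 of the 18, véraison and maturity lay within 5 points of each other. A region is in this set only if it was listed against first growth at both later stages, which favours places where those stages are alike.

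Single CHG places show the split. VIT_17s0000g07230.t01 on chromosome 17, from 8072081 to 8072368, had 38% at first growth, then 16% at véraison and 14% at maturity. VIT_06s0080g00280.t01 on chromosome 6, from 20140772 to 20140911, had 36% at first growth, then 88% at véraison and 89% at maturity. In shorter models, 70 CHG regions followed in the same way had medians of 26.5%, 15.5% and 14% at the 3 stages in order, and 52 of the 70 were lower at both later stages.

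**Figure D5:**
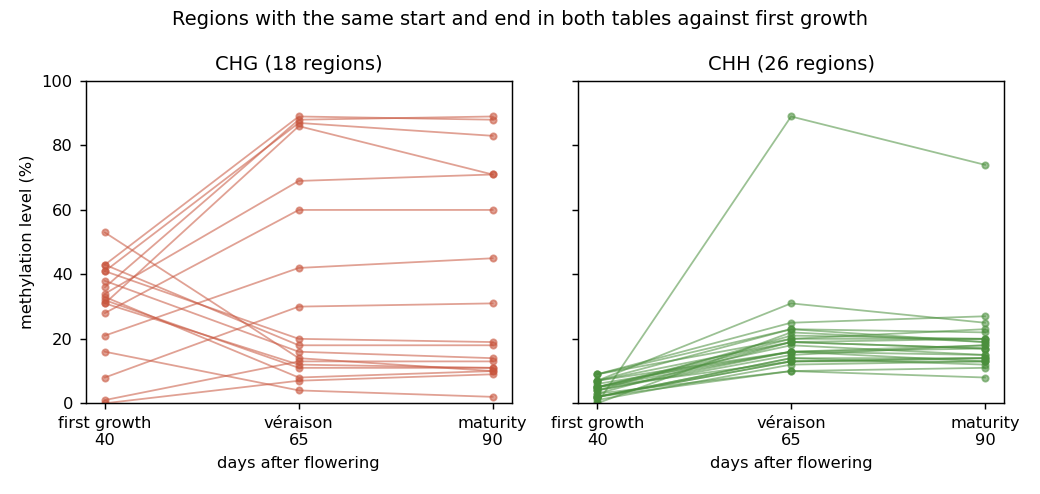
Methylation level (percent) at first growth, véraison and maturity in the 18 CHG and 26 CHH regions of very long models that have identical limits in the tables of both later stages against first growth; each line is 1 region. The CHH lines start low and are higher at both later stages, and the CHG lines split into 8 that are lower and 10 that are higher.

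More places could be compared when overlap of at least 1 bp between tables was enough. Each pair of tables shares a library, so the counts below describe places and are not independent of each other. An error in the shared library would by itself push the directions. It favours the same direction where that library is the earlier stage in both tables, or the later stage in both. Opposite directions are favoured where it is later in one and earlier in the other. In CHG, 123 pairs of regions from the tables of véraison and of maturity against first growth overlapped, with 24.9% of the regions of one and 21.4% of the other taking part. Of these, 89 were lower in both, with medians of 42% at first growth, then 18% at véraison and 19% at maturity, and 28 were higher in both, with medians of 20%, 43.5% and 43% at these stages.

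Other CHG places in the very long models differed at maturity from both earlier stages. Of 173 pairs from the tables of maturity against véraison and maturity against first growth, 136, in 79 members, were lower in both. Their medians were 47% at first growth, then 44% at véraison and 20% at maturity. Another 33 pairs were higher in both, with medians of 19% at first growth, then 13% at véraison and 37% at maturity.

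At further CHG places the listed level at véraison stood apart from both other stages. These tables share the véraison library, as the later stage in one and the earlier in the other, which favours opposite directions. Whether the levels truly went one way and then back was not tested. Of 101 pairs from the tables of véraison against first growth and maturity against véraison, 45 were higher at véraison than at both other stages, with medians of 13% at first growth, then 35.5% at véraison and 16% at maturity. In 49 pairs véraison was lower, with medians of 35%, 15% and 38% at these stages. Only 6 pairs were lower in both steps and 1 was higher in both.

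In CHH the same comparison gave mostly places that stayed high. Of 487 pairs from both tables against first growth, 486 were higher in both, with medians of 4.5% at first growth, then 15% at véraison and 15% at maturity. In 26 pairs, in 26 members, only maturity stood apart, with medians of 3% at first growth, then 3% at véraison and 18% at maturity. In 39 pairs CHH was high at véraison alone, with medians of 4% at first growth, then 17% at véraison and 4% at maturity.

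The direction of neighbouring CHG regions in a very long model was compared by the gap between them. Of neighbouring regions less than 1 kb apart, 38 of 45 had the same direction for maturity against first growth (84.4%, interval 70.5 to 93.5%), and 30 of 38 for maturity against véraison (78.9%, interval 62.7 to 90.4%). For véraison against first growth it was 17 of 30 (56.7%, interval 37.4 to 74.5%). At gaps of 1 to 10 kb the shares were 66.0% for maturity against first growth, 46.3% for maturity against véraison and 56.2% for véraison against first growth. At gaps of 10 kb or more they were 64.5%, 68.3% and 44.1% in the same order, so the share did not fall steadily with distance. The proportions of higher and lower regions alone would give 65.1% for maturity against first growth, 55% for maturity against véraison and 52.0% for véraison against first growth. Regions of one table can overlap, which adds to the count of close neighbours with the same direction.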

How the data were processed

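DNA methylation was measured by whole-genome bisulfite sequencing in 3 libraries, 1 per stage. Reads were processed with BSMAP 2.73, a bisulfite aligner, per the submitters' processing notes. The sources used here do not give the region caller, coverage filter, genome build or annotation, and whether starts begin at 0 or 1 is not stated. The authors deposited levels as fractions, per the file headers, rounded to steps of 1 percentage point, and they were turned into percent here. The deposited p-values are described there as a chi-square statistic, but none exceeds 0.00999823, so they were read as p-values without adjustment. The tables hold no counts, so depth is unknown and levels have no interval.

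A row counted for a gene model where the authors' gene column names it, which is at most 1 model per row. Lengths are end minus start plus 1. Shares have exact Clopper-Pearson 95% intervals, which cover counting error over regions only, and neighbouring regions are not independent. Python 3.11.15 with pandas 2.3.3, SciPy 1.17.1 and matplotlib 3.10.9 was used, and the counting code was tested on simulated data.

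The members and lists were chosen with earlier results of these data known. Named models are the 10 longest, the 5 with the most regions, the 5 with the most per kb, the region with the largest gain and loss per table, and models with 1 direction in each of 3 contexts. Others were named after their values were seen: those with a single region, those without CHG regions, the CG entries of VIT_05s0136g00140.t01, the models next to the length limit, the regions with the smallest p, and both single CHG places followed through the stages. The alternatives took stricter region lists, other length limits, other overlaps, regions wholly inside the model or log2 ratios of the levels, or left out 1 member. The identifiers of the 238 members were looked up among 29591 reference genes, and 0 matched.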

Additional observations from a re-analysis of the deposited data

How the results depend on the processing

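Of 245 values computed under alternative settings for 46 results, 229 were counted as unchanged and 16 moved out of the interval of the reported value. Unchanged means within that interval, except for log2 ratios of the levels. Those are in another unit, and only their sign was compared with that of the median difference. The intervals of CG values are wide, and 4 CG values within them were on the other side of no change. For véraison against first growth the median CG difference, 14 points as reported, was -6 with a limit of 30000 bp and -2.5 without VIT_15s0048g01650.t01, and the share of higher CG regions, 60% as reported, was 44% with that limit and 33.3% among longer regions. With that limit CG density was 1.16 per Mb for this pair, 0.706 as reported, and 1.39 between first growth and maturity, 0.848 as reported. Keeping only regions with at least the median difference of their table gave 34.7% higher CHG and 99.1% higher CHH regions for véraison against first growth. Keeping only longer regions gave 18.6% higher CHG regions for maturity against first growth and 41.7% of CHH regions in the outermost of 5 parts of the model for véraison against first growth; for maturity against véraison it left 1 CG region, so 100% were higher and 100% lay in the outermost parts. A limit of 50000 bp put 100% of 6 CG regions of véraison against first growth in the outermost parts. A limit of 30000 bp gave 10.6 CHH regions per Mb for maturity against véraison and a median CHH difference of 12 points for maturity against first growth. It also left 4 CG regions followed through the stages, with medians of 34.5%, 83.5% and 87.5% at first growth, véraison and maturity; matching by an overlap of 0.5 left 3, with 22.5% at first growth. Joining overlapping regions of one table, a setting chosen after seeing the data, gave 107.7 CHH regions per Mb for véraison against first growth, and for maturity against véraison 32.8 CHG regions per Mb, with 33.4 between first growth and maturity. The overlap of CG and CHG regions gave a value for véraison against first growth only. No paired analysis was possible because each stage has 1 library. Unknown depth limits every level, above all those at 0% or 100% in short regions, and levels of listed regions are not averages of the models.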

Other observations

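Some very long models held CHG regions in crowds, which were looked up after their values were seen. VIT_17s0119g00350.t01, of 83676 bp on chromosome 17, had the most CHG regions of any member, 24, and 10 of the 11 of maturity against first growth were lower at maturity. VIT_15s0045g01250.t01 on chromosome 15 had 21 CHG regions, with 15 of them between 6934455 and 6939286, of which 7 were higher and 8 lower at the later stage. In VIT_18s0001g07740.t01 on chromosome 18, 10 of 15 CHG regions lay between 6100389 and 6104557, and 7 of the 10 were lower. In VIT_08s0105g00330.t01 on chromosome 8, 7 of 11 CHG regions lay between 7432743 and 7433628, and all 7 were lower. In VIT_11s0052g00070.t01 on chromosome 11, 15 of 19 CHH regions lay between 16974409 and 16978390, and all 15 were higher.

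One short stretch of VIT_07s0005g05600.t01 on chromosome 7 had the smallest p of all member regions beside small differences, and was also looked up after its values were seen. All 6 CHH regions of this model lie between 9709681 and 9709938. From 9709720 to 9709804 the CHH level was 8% at véraison and 4% at first growth, with p = 5.18e-210 in the authors' deposited table. From 9709681 to 9709817 it was 13% at maturity and 6% at first growth, with a p listed as 0 in the authors' deposited table. Over all members, 8 regions in 3 models have a p under 1e-50 in the authors' deposited table, all of them CHH, and the next smallest p is 3.55e-41. The depth behind these values is unknown.

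In 8 cases a listed region overlapped a very long model, by 6 to 179 bp, but the tables name no gene model beside it. These regions were not counted with the members.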
